A study of Oryctolagus cuniculus with 6 samples.

Results

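CD3E, CD3G, LCK and ZAP70 encode the signalling end of the T cell receptor, and all 4 were measured among 23413 genes and unnamed identifiers in healing skull defects of rabbits. Probes were matched by accession, gene identifier or gene symbol, and the brightest probe of a gene was used. The arrays carried 8 probes for these 4 genes, of which 5 belonged to CD3G. The tissue was newly formed tissue from parietal bone defects, 5 mm wide, of male New Zealand White rabbits aged 4 months. The treatment was HPD, which the series title gives as human particulated dentin, at 0.2 g in the right-hand defects, and empty defects of the same animals served as controls. The design names 24 rabbits and mentions blood samples beside the bone tissue, and the labels do not say how many animals contributed RNA to an array. Tissue was taken after 3, 5 and 7 days and each of the 6 combinations of treatment and day was hybridised to 1 single-colour array (n = 1), so that a difference on a single day has no replicate and no test.

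The T cell receptor recognises peptide on MHC molecules through a pair of variable chains that have almost no cytoplasmic part of their own. Signalling depends on the associated CD3 chains and the zeta chain, whose cytoplasmic motifs are phosphorylated by the Src family kinase LCK, which is carried by the CD4 and CD8 coreceptors. Phosphorylated motifs recruit the Syk family kinase ZAP70, which in turn phosphorylates adapters such as LAT and SLP-76, encoded by LCP2. In a healing bone defect T cells are a small population beside neutrophils, macrophages and stromal cells. In a bulk sample fewer T cells and less of a transcript per cell cannot be told apart.

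The probe sequences show how far the measurements of the 4 genes are independent. The 5 CD3G probes share 1 RefSeq accession and were tiled along its sequence, and capitals mark the bases that each shares with the probe before it, 26 for the first neighbours and 30 for the others. Together they covered 184 bases, including the stretch that encodes the membrane-spanning segment.
CD3G probe 1: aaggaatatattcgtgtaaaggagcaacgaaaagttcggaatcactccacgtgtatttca
CD3G probe 2: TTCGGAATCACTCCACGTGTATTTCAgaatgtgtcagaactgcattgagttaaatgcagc
CD3G probe 3: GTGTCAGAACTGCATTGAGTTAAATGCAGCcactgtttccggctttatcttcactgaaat
CD3G probe 4: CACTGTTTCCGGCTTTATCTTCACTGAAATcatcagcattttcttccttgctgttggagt
CD3G probe 5: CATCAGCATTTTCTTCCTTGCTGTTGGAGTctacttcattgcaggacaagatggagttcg
Neighbouring CD3G probes therefore repeat part of one measurement and are not replicates. CD3G probe 4, from base 338 of the transcript, was the brightest and stands for the gene below.

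The LCK probe lies in the part of the transcript that encodes the kinase domain, a stretch much alike among Src family kinases. A probe for the B cell kinase BLK carries the product name of LCK in the array's description, but its accession, XM_002709439, belongs to BLK in RefSeq. Both are shown because the end of the LCK probe and the start of the BLK probe align over 22 bases, in capitals, with 3 mismatches.
LCK: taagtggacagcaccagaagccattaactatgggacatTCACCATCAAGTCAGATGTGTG
BLK: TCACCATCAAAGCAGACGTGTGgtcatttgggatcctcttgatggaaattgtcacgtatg
The BLK probe was the brighter by mean log2 signal (-2.94 against -3.19), so that a match on the product name alone would have put BLK in the place of LCK. It was left out of the 4 genes and its values are given beside those of LCK. CD3E and ZAP70 had 1 probe each.
CD3E: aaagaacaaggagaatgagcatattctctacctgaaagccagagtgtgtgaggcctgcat
ZAP70: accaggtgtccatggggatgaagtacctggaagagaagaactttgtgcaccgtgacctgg
The files give a genome position for the ZAP70 probe alone among the probes that stand for the 4 genes, chromosome 2, 94412115 to 94412174 on the minus strand of oryCun2, within the coding sequence. The BLK probe lies on the minus strand of the same chromosome at 38417340 to 38417399. RefSeq accessions in the array's descriptions are NM_001082001 for CD3E, XM_002722183 for CD3G and XM_002720629 for LCK, and ZAP70 was named through its gene identifier.

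Of the 43803 spots that are not controls, 78.1% to 86.4% per array were well above background and 0 were saturated. Both day 3 arrays lay on 1 slide and the arrays of days 5 and 7 on another, so day 3 and slide cannot be told apart, whereas days 5 and 7, and the treatments within a day, were compared within a slide. All values below are log2 processed signal minus the array's 75th percentile unless another scale is named, so a value of -3 is an 8-fold weaker signal than that percentile. Over 31 probes printed 5 times on each array and as bright as the 4 genes, the median SD between spots of a probe was 0.15 log2 units. The highest was 1.02. The bone and matrix genes used as a tissue check were present on every array, with COL1A2 at 8.54 to 10.15 and IBSP at 3.61 to 6.85. HBA, the alpha globin chain of red cells, was at 10.004 to 10.675 over the 6 arrays.

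CD3G, the gamma chain of the CD3 complex, had a scaled signal of -0.41 in control and -0.94 in HPD defects on day 3. On day 5 the values were -1.73 in control and -0.35 with HPD, and on day 7 they were -2.41 in both. The HPD array of day 5 was thus at the level of the day 3 control, while the control of day 5 stood between days 3 and 7. The difference, HPD minus control, was -0.53 on day 3, 1.38 on day 5 (2.60-fold) and -0.01 on day 7. All 5 CD3G probes were lower with HPD on day 3, with differences of -0.75 to -0.53, and higher on day 5, with differences of 1.17 to 1.74. On day 7 they differed by -0.41 to 0.07, with 1 of 5 higher.

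CD3E, the epsilon chain that pairs with gamma and delta, had a scaled signal of -2.80 in control and -3.37 in HPD defects on day 3. On day 5 these were -4.53 and -3.26, and on day 7 they were -4.44 and -4.00. The day 3 control was the highest of the 6 and the controls of days 5 and 7 were the lowest, close to each other. HPD minus control was -0.58 on day 3, 1.27 on day 5 (2.41-fold) and 0.44 on day 7.

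LCK, the kinase that starts phosphorylation of the complex, had a scaled signal of -1.89 in control and -2.48 in HPD defects on day 3. On day 5 the signals were -3.73 and -2.77, and on day 7 they were -3.98 and -4.27. Both day 7 arrays were the lowest, and the HPD array of day 5 lay between the day 3 arrays and the control of its day. HPD minus control was -0.59, 0.95 (1.94-fold) and -0.28 on days 3, 5 and 7. The BLK probe, in the same order of days, was at -2.91 and -3.46, then -2.66 and -2.89, then -3.10 and -2.61 for control and HPD. BLK did not share the pattern: its HPD difference on day 5 was -0.23, and its correlation with LCK over the 6 arrays was -0.47.

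ZAP70, the kinase recruited to the phosphorylated complex, was the dimmest, and its probe was well above background on 3 arrays only. These were control (-3.73) and HPD (-4.01) of day 3 and HPD of day 5 (-4.86). The control of day 5 (-5.67) and the day 7 arrays (-5.31 for control, -5.49 for HPD) were not well above background and give only an upper limit. A fold given as "at least" has as its lower side either the dim spot itself or, if that is brighter, the weakest spot of its array that was well above background. ZAP70 was at least 1.59-fold higher with HPD on day 5, differed by -0.28 on day 3, and had no measurable difference on day 7.

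**Figure D1:**
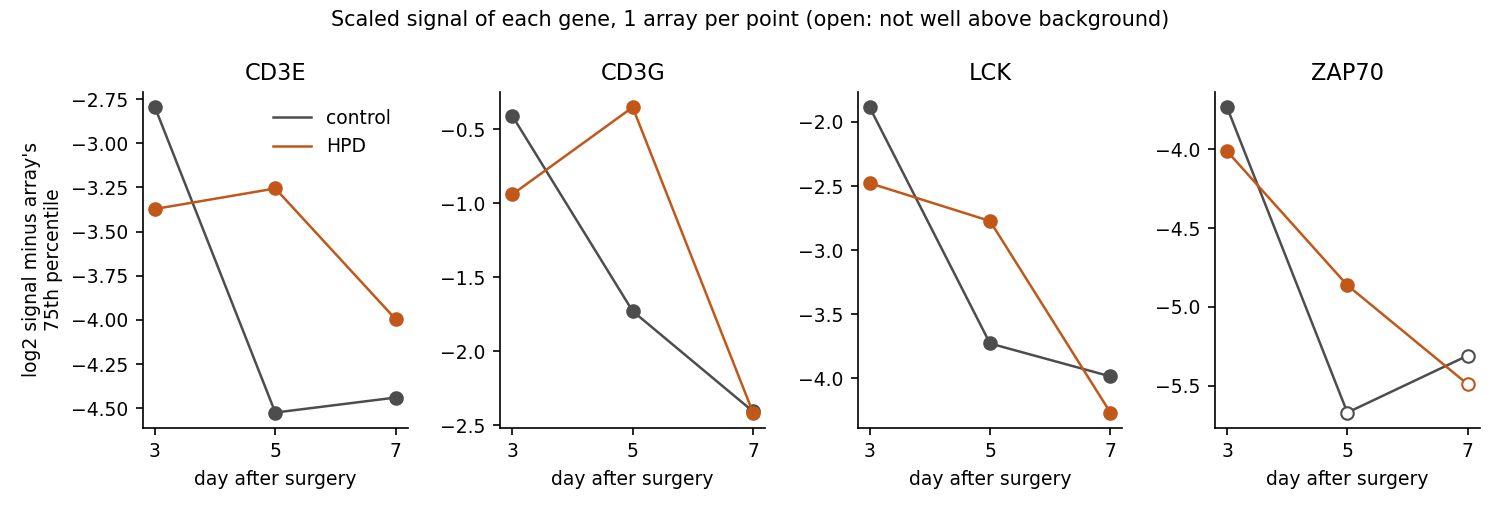
Scaled signal (log2 processed signal minus the array's 75th percentile) of CD3E, CD3G, LCK and ZAP70 on days 3, 5 and 7, with control in grey and HPD in orange. Each point is 1 array and open points are not well above background. In each panel the control point is above HPD on day 3 and below it on day 5, and in the CD3G panel both points meet at -2.41 on day 7.

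The first comparison asked how filled defects differed from empty ones. On day 3 all 4 genes were lower with HPD, with differences of -0.59 to -0.28, whereas 64.1% of the 19735 features measured on both arrays were higher. None of the 4 differed 2-fold, where 2.90% of features were at least 2-fold lower and 3.57% higher. On day 5, 3 genes were well above background on both arrays, all 3 were higher with HPD, and 2 of them, CD3E and CD3G, were at least 2-fold higher. Of 19239 features 59.1% were higher, 4.86% at least 2-fold higher and 1.68% at least 2-fold lower. On day 7, 1 of 3 was higher and 0 differed 2-fold, where 59.3% of 18608 features were higher, 1.63% at least 2-fold, and 0.844% were at least 2-fold lower. The median of the measured genes was -0.55, 1.27 and -0.01 on days 3, 5 and 7, against 0.13, 0.09 and 0.08 over all features. A pair of signs lower on day 3 and higher on day 5 was found for CD3E, CD3G and LCK and for 19.7% of all features. ZAP70 is not counted there, since its control of day 5 was not well above background. Lower on day 3 and at least 2-fold higher on day 5 applied to CD3E and CD3G and to 2.09% of features.

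Averaged over the 3 days, no difference between filled and empty defects passed the test. The limma fit with day as a block gave HPD minus control of 0.38 ± 0.38 for CD3E (SE, 6 arrays), 0.28 ± 0.40 for CD3G and 0.03 ± 0.34 for LCK. Their adjusted p were 0.703, 0.792 and 0.980 in limma with Benjamini-Hochberg adjustment over 20257 features, and HPD was the higher in 2, 1 and 1 of the 3 days. The same test called 0 features (0% higher, 0% lower), while 1458 (7.20%) were higher and 285 (1.41%) lower at an unadjusted p under 0.05, none of them among the 4 genes. ZAP70 passed the filter only through the 3 arrays where it is brightest, so its fitted differences, here and between days, rest on values not well above background and are not given. Without the day 5 arrays the fitted differences were -0.066 for CD3E, -0.27 for CD3G and -0.44 for LCK.

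**Figure D2:**
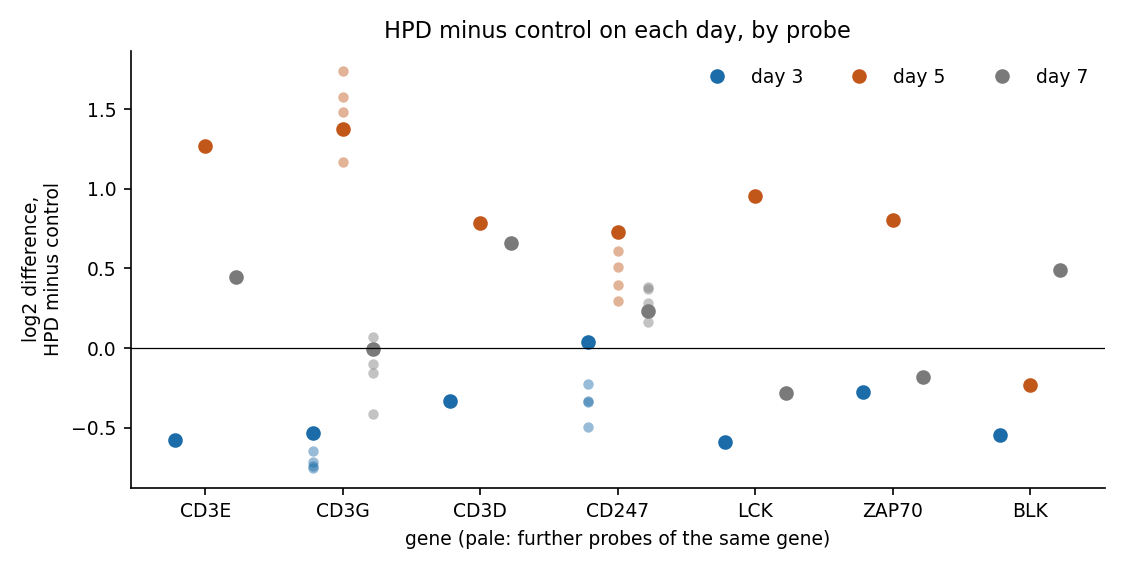
HPD minus control (log2) on day 3 (blue), day 5 (orange) and day 7 (grey) for the 4 genes, the other chains CD3D and CD247, and BLK, 1 point per probe with further probes of a gene in paler colour. On day 5 the 5 CD3G probes sit between 1.17 and 1.74, CD3E at 1.27, LCK at 0.95 and BLK at -0.23, and the ZAP70 points of days 5 and 7 rest on values not well above background.

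The second comparison followed healing from day 3 to day 7. CD3E, CD3G and LCK were lower on day 7 than on day 3 in both treatments. ZAP70 is left out of the counts, since it passed the filter only through the arrays where it is brightest, both day 3 arrays among them. In empty defects day 7 minus day 3 was -2.10 for LCK, -1.995 for CD3G and -1.64 for CD3E, and ZAP70 was at least 2.98-fold lower. CD3E, CD3G and LCK were thus at least 2-fold lower, as were 5.99% of features. In filled defects it was -1.79 for LCK, -1.47 for CD3G and -0.62 for CD3E, and ZAP70 was at least 1.47-fold lower. There CD3G and LCK were at least 2-fold lower, against 6.57% of features, and 3.08% of features were so in both treatments. For CD3E, CD3G and LCK, both day 3 arrays were above both day 7 arrays, an ordering held by 26.9% of features.

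Fitted over both treatments, day 7 minus day 3 was -1.94 ± 0.42 for LCK (SE, 6 arrays), -1.73 ± 0.49 for CD3G and -1.13 ± 0.46 for CD3E. None passed the test, with limma adjusted p of 0.142, 0.178 and 0.263. The unadjusted p in limma were 0.00730 for LCK, 0.0201 for CD3G and 0.0642 for CD3E, where 10.1% of features were lower at an unadjusted p under 0.05. After adjustment 1 feature was called for day 7 minus day 3 (0.00494% higher, 0% lower). It is ENSOCUT00000010166, described as a bubblegum-related acyl-CoA synthetase and chosen here after its values were seen, and it was higher by 5.01. The median over all features was -0.01, and 49.0% were higher on day 7, 10.8% at an unadjusted p under 0.05.

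Day 5 stood at different places on the way from day 3 to day 7 in the 2 treatments. In empty defects the signal was already low on day 5: day 5 minus day 3 was -1.84 for LCK, -1.73 for CD3E and -1.32 for CD3G, and ZAP70 was at least 3.47-fold lower. A difference of 2-fold or more downwards held for CD3E, CD3G and LCK and for 7.49% of features. ZAP70 is not counted, since it passed the filter only through the arrays where it is brightest. In filled defects day 5 minus day 3 was 0.59 for CD3G, 0.12 for CD3E, -0.30 for LCK and -0.85 for ZAP70, with 0 of 4 at least 2-fold lower, against 4.30% of features. All 5 CD3G probes gave the same order, at -1.69 to -0.90 in empty and 0.59 to 0.98 in filled defects.

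Between days 5 and 7, which shared a slide, the larger difference lay in filled defects. There day 7 minus day 5 was -2.06 for CD3G, -1.49 for LCK and -0.74 for CD3E. At least 2-fold lower were CD3G and LCK, against 5.62% of features. In empty defects the same difference was -0.68 for CD3G, -0.26 for LCK and 0.09 for CD3E, with 0 of the 3 measured genes at least 2-fold lower, against 1.84% of features. ZAP70 gave no fold between these days, since day 7 was not well above background in either treatment. With 1 array per treatment and day, the difference between the treatments in these paths was not tested. In the fit over both treatments, day 5 minus day 3 was -1.07 ± 0.42 for LCK, -0.81 ± 0.46 for CD3E and -0.36 ± 0.49 for CD3G (SE, 6 arrays). The limma adjusted p were 0.314, 0.424 and 0.717, and the 1 feature called (0.00494% higher, 0% lower) was again ENSOCUT00000010166, at 5.07. None of these 3 genes had an unadjusted p under 0.05 in limma, where 10.1% of features were lower and 6.32% higher at that level, and 44.2% of all features lay above 0. For day 7 minus day 5 the fit gave -1.37 ± 0.49 for CD3G, -0.87 ± 0.42 for LCK and -0.33 ± 0.46 for CD3E, with limma adjusted p of 0.611, 0.633 and 0.799. That contrast had 0 features called, while 968 (4.78%) were higher and 675 (3.33%) lower at an unadjusted p under 0.05 in limma, CD3G among the latter.

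Because the probes are dim, the unscaled signal was set against the negative control spots of each array. Mean signal minus local background was 67.3 to 380 intensity units for CD3G, 28.0 to 145 for LCK, 27.5 to 89.2 for CD3E and 12.9 to 46.9 for ZAP70. The median of the 153 negative control spots on the same scale was 6.50 to 8.37. The lowest ratios to that median were 8.99 for CD3G and 3.78 for LCK, both on the HPD array of day 7, and 4.03 for CD3E on the control of day 7. ZAP70 on the control of day 5 was 1.99 times it, and 12 of the 153 negative spots there were at or above the ZAP70 spot. On the other arrays 0 to 7 negative spots reached the ZAP70 spot, and over the 6 arrays 0 to 3 reached the LCK spot, 0 to 2 the CD3E spot and 0 to 1 the CD3G spot.

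On that scale, mean signal minus local background after the same 75th percentile shift, the day 5 difference was 1.30 for CD3G, 0.90 for LCK and 0.80 for CD3E, where processed signal gave 1.38, 0.95 and 1.27. With the median of the negative controls subtracted instead, it was 1.33, 0.93 and 1.105. Under normexp with an offset of 50, which compresses dim signals, it was 0.94 for CD3G, 0.19 for LCK, 0.07 for CD3E and -0.12 for ZAP70. CD3G thus stayed within 1.5 times of its day 5 difference under these 3 corrections, while LCK and CD3E were close to 0 under normexp. Lower signal with HPD on day 3 was found for each of the 4 genes under each of the 3 corrections. The difference between days 3 and 7 was smaller under normexp as well. Fitted over both treatments, day 7 minus day 3 was then -1.11 for CD3G and -0.14 for CD3E, where processed signal gave -1.73 and -1.13. LCK under normexp was at -1.46 and -1.86 on day 3 and at -2.24 and -2.27 on day 7 for control and HPD.

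**Figure D3:**
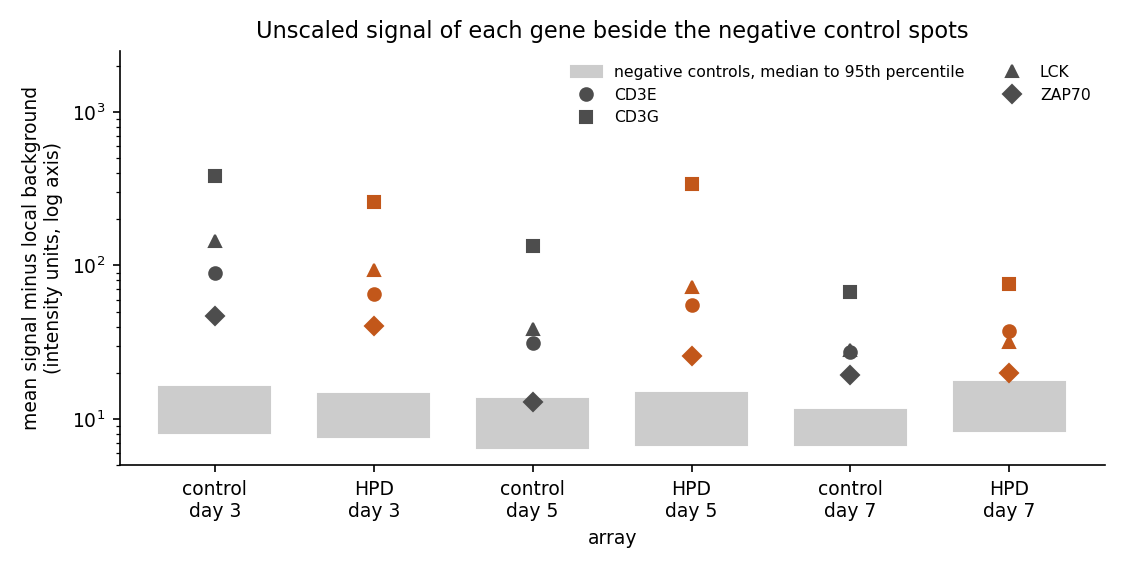
Mean signal minus local background (intensity units, log axis) of the 4 genes on each array, with control in grey and HPD in orange, and grey bars from the median to the 95th percentile of 153 negative control spots. CD3G lies between 67.3 and 380 on every array, while ZAP70 on the control of day 5, at 12.9, is inside the bar.

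Of the other chains of the complex, CD3D showed a like order of arrays and CD247 did so in part. CD3D, the delta chain that pairs with epsilon, had a scaled signal of 1.39 and 1.06 on day 3, 0.04 and 0.83 on day 5, and -0.32 and 0.34 on day 7 for control and HPD. Its HPD difference was -0.33, 0.79 and 0.66 on the 3 days, so unlike CD3G it was also higher with HPD on day 7. CD247, which encodes the zeta chain, had 5 almost fully overlapping probes, whose day 5 differences were 0.29 to 0.73, all higher with HPD, and whose day 3 differences were -0.49 to 0.04, with 1 of 5 higher. The probe at 0.04 was the brightest. Over 6 arrays it correlated with CD3E at 0.89, with LCK at 0.78 and with CD3G at 0.63. Both were lower on day 7 than on day 3, CD3D at -1.21 ± 0.33 and CD247 at -0.70 ± 0.23 (SE, 6 arrays), with adjusted p of 0.169 and 0.206 in limma.

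Probes described as chains of the antigen-binding pair had no symbol in the gene table and were found by their description after the files had been read. There were 63 such probes from 20 sequences, of which 35 were well above background on all 6 arrays, and many overlap. On day 3, 64.1% of all features were higher with HPD and the 4 genes were lower. Of the 35 probes 25 were higher, with a median of 0.24. These were 15 of 18 beta and 10 of 11 delta chain probes and 0 of the alpha and gamma chain probes. On day 5, 34 of the 35 were higher with HPD (59.1% of all features), with a median of 0.62 and a range of -0.02 to 2.59. Of these, 7 were at least 2-fold higher, against 4.86% of all features. From day 3 to day 7 the median was -0.28 in empty and -0.40 in filled defects. In each, 3 of 35 were at least 2-fold lower, against 5.99% of all features in empty and 6.57% in filled defects. These shares are not on one footing, since the features needed only 3 arrays well above background and the 35 probes all 6. A receptor chain probe that fell into background by day 7 was thus left out of the 35.

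The alpha chain was described by 3 probes of 1 sequence, singled out here after their values were seen. Its probe A_04_P012816 had a scaled signal of 2.47 and 1.56 on day 3, -0.28 and 0.99 on day 5, and -0.91 and -1.08 on day 7 for control and HPD. HPD minus control was -0.91, 1.27 and -0.17 on the 3 days, the first opposite in sign to the median of the 35 probes, and day 7 minus day 3 was -3.38 in empty and -2.63 in filled defects. Another alpha chain probe, A_04_P012817, gave day 7 minus day 3 of -1.66 and -0.84, and the last, A_04_P090899, -0.82 and -0.28. The 18 beta chain probes had a median day 5 difference of 0.68 and a median day 7 minus day 3 of -0.25 in empty and -0.37 in filled defects. Among the 35 probes the lowest value was that of a delta chain probe, A_04_P012861, at -3.90 in empty defects against 0.01 in filled ones. Probes of one chain thus disagreed in size, and which rearranged genes each one detects was not tested.

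**Figure D4:**
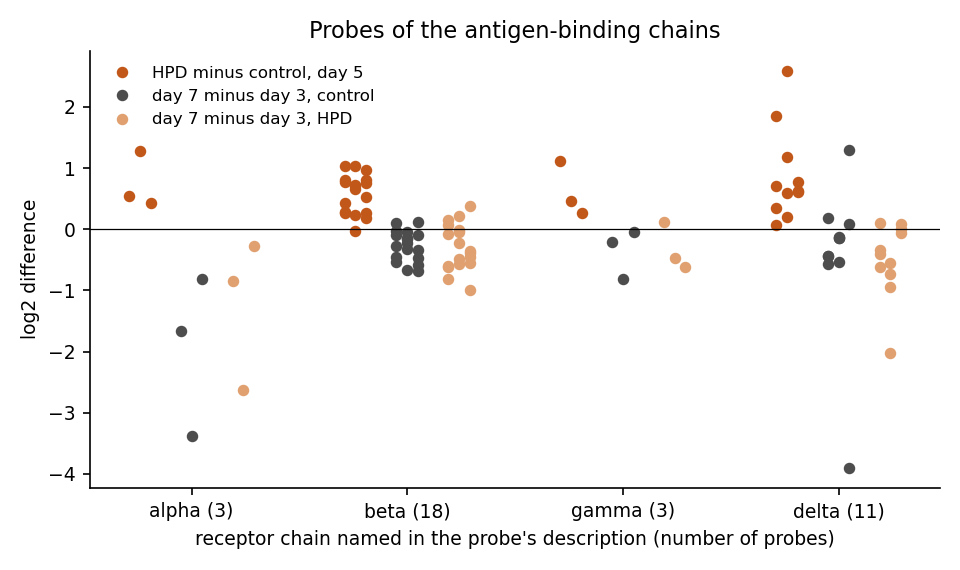
Log2 differences of the 35 probes described as alpha, beta, gamma or delta chains of the T cell receptor and well above background on all 6 arrays: HPD minus control on day 5 (orange), and day 7 minus day 3 in control (grey) and HPD (pale orange). On day 5, 34 of 35 orange points lie above 0, while for day 7 minus day 3 the lowest alpha chain values are -3.38 and -2.63 and the lowest delta chain point is at -3.90.

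The wider T cell programme was described through 9 lists with 124 genes, of which 68 were tested. None of the 68 passed the limma test for any contrast, and at an unadjusted p under 0.05 in limma 19 were lower and 4 higher on day 7 than on day 3, where 10.1% of all features were lower and 10.8% higher. Their median for day 7 minus day 3 was -0.32. For HPD minus control 8 of 68 were higher and 0 lower at that level (7.20% and 1.41% of all features), with a median of 0.26 against 0.09 over all features.

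Coreceptors and costimulatory receptors had mostly small differences. Of 12 measured, 8 were lower and 4 higher on day 7 than on day 3 (49.0% of all features higher), with a median of -0.27. CD40LG alone was at least 2-fold lower (-1.32), on a probe well above background on 3 arrays. Of all features 5.99% were at least 2-fold lower in empty and 6.57% in filled defects, and the share in the fit was not counted. CD4 and CD8A, which bring LCK to the receptor, were at -0.35 ± 0.20 and -0.35 ± 0.17 (SE, 6 arrays, named for this role after their values were seen), and CD2, an adhesion receptor of T cells, was at -0.91 ± 0.20. With HPD 9 of 12 were already higher on day 3 (64.1% of all features), with a median of 0.32, where the 4 genes were lower. On day 5, 10 of 11 were higher with HPD (59.1% of all features), with a median of 0.44 and none at 2-fold, led by CD28 (0.92) and CD5 (0.91).

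Adapters and kinases downstream of the receptor were mixed. Of 12 measured, 8 were lower on day 7 than on day 3, where 49.0% of all features were higher. At least 2-fold lower in the fit were 4 of these, SKAP1 (-2.47), RASGRP1 (-1.06), FYB1 (-1.04) and LCP2 (-1.02). Of all features 5.99% were at least 2-fold lower in empty and 6.57% in filled defects, and the share in the fit was not counted. The SKAP1 and RASGRP1 probes were well above background on 4 and 3 arrays. LCP2, the scaffold phosphorylated by ZAP70, was 0.996 log2 units higher with HPD on day 5. Named for its role after its values were seen, FYN, the other Src family kinase of T cells, was at 0.57 ± 0.22 (SE, 6 arrays).

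Phosphatases and other brakes, homing genes and effector genes included some with large differences. Over all features 49.0% were higher on day 7 than on day 3, and 59.1% were higher with HPD on day 5. Of 8 phosphatases and brakes 6 were lower on day 7 than on day 3, with a median of -0.40, and 7 were higher with HPD on day 5. PTPRC, the CD45 phosphatase that keeps LCK active and is found on all white cells, was at -1.41 ± 0.37 for day 7 minus day 3 and 1.26 higher with HPD on day 5. Of 10 homing genes 8 were lower on day 7, among them the chemokine CCL5 (-3.86 ± 0.48) and the chemokine receptor CXCR4 (-1.65 ± 0.55). Of 5 cytotoxic genes 4 were lower, among them SH2D1A at -3.399 ± 0.57 and PRF1, which encodes perforin, at -1.61 ± 0.27, while KLRG1 was at 1.63 ± 0.53. The interferon gamma gene IFNG, among the 7 of 9 cytokine and cytokine receptor genes that were lower, was at -1.56 ± 0.45 and 1.58 higher with HPD on day 5 (all SE, 6 arrays). Of 6 T cell transcription factors 4 were lower on day 7, none 2-fold, with a median of -0.09, and on day 5, 2 were higher and 3 lower with HPD, with a median of -0.28.

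Markers of other blood cells moved with the 4 genes in part, and their part in the result was not tested. Of 12 myeloid genes all 12 were lower on day 7 than on day 3, with a median of -0.91, and all 12 were higher with HPD on day 5, with a median of 0.996 and 6 at least 2-fold. Over all features 49.0% were higher on day 7 than on day 3. With HPD on day 5, 59.1% of all features were higher, 4.86% at least 2-fold. S100A8 and S100A9, the calprotectin subunits of neutrophils and monocytes, were at -4.84 and -4.81 for day 7 minus day 3 and at 1.69 and 1.48 on day 5. Their summed level with the other myeloid genes, in units of the array's 75th percentile, was 1100 and 472 on day 3, 230 and 684 on day 5, and 31.9 and 68.0 on day 7 for control and HPD. That sum is mostly S100A8 and S100A9, except on the control array of day 7. Gene by gene, 7 myeloid genes were lower and 5 higher with HPD on day 3 (median -0.13), the latter including MSR1 (1.15) and CD68 (0.76), both macrophage genes. Among the 7, S100A8 was at 9.40 in control and 8.20 in HPD defects, and S100A9 at 8.57 and 7.04. At least 2-fold lower were 3 myeloid genes and at least 2-fold higher 1, against 2.90% and 3.57% of all features. On that day 64.1% of all features were higher with HPD. The sum of the 4 genes was 1.24 and 0.859, then 0.440 and 1.07, then 0.323 and 0.325.

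Of 11 B cell and plasma cell genes 7 were lower on day 7 (median -0.30) and 9 were higher with HPD on day 5 (median 0.53), with a summed level of 9.72 to 12.6 over the 6 arrays. Over all features 49.0% were higher on day 7 than on day 3, and 59.1% were higher with HPD on day 5. The defining genes MS4A1, which encodes CD20, at 1.63 to 2.16, and CD79B, a chain of the B cell receptor, at -1.70 to 0.59, were well above background on all 6 arrays. All 4 red cell genes were lower with HPD on day 3 (64.1% of all features higher), with a median of -1.32, and 3 of 4 were higher on day 5, with a median of 0.35. Their summed level was 1038 to 1661, and the part of red and B cells in the values of the 4 genes was not tested.

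**Figure D5:**
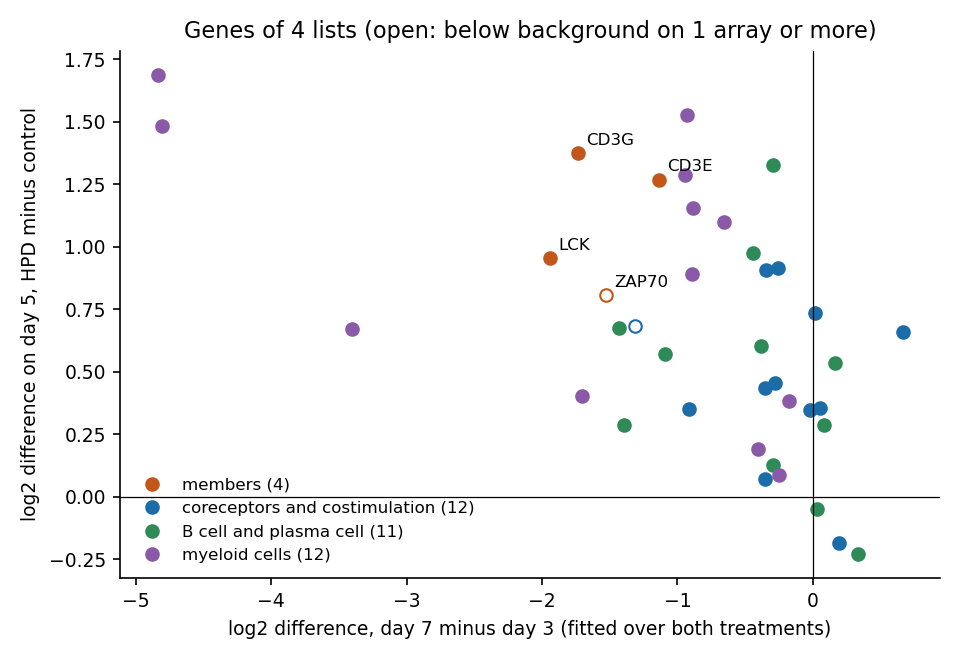
Day 7 minus day 3 (log2, fitted over both treatments) against HPD minus control on day 5 (log2) for genes of 4 lists, 1 point per gene, with open points not well above background on every array. CD3E, CD3G and LCK lie at the upper left with CD3G at -1.73 and 1.38 and LCK at -1.94 and 0.95, and the myeloid points of S100A8 and S100A9 lie farthest left, at -4.84 and -4.81. The open ZAP70 point is not to be read with them. ZAP70 passed the filter only through the day 3 arrays and the HPD array of day 5, where it is brightest.

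The 4 genes followed one another over the 6 arrays, with Pearson correlations of 0.75 to 0.93, and CD3D correlated with CD3E at 0.96. ZAP70 enters these correlations and the mean profile below with arrays where it was not well above background. Among CD3E, CD3G and LCK the correlations were 0.86 to 0.93. These are descriptions over 6 arrays that share treatment, day and scaling. Among 2440 other named genes that ranged at least 2-fold and were measured on each array, 173 (7.09%) correlated above 0.9 with the mean profile of the 4. The highest were FGF2 (0.996), BANK1 (0.991), RLA-A3 (0.991), RCSD1 (0.991), TMEM164 (0.988) and CXCR4 (0.987). FGF2 is a fibroblast growth factor, BANK1 a B cell scaffold and RLA-A3 a rabbit MHC class I gene. BANK1 was highest on the day 3 arrays, then on the HPD array of day 5, with scaled signals of -1.34 and -1.84, -3.25 and -2.21, and -3.22 and -3.47 on days 3, 5 and 7 for control and HPD.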

How the data were processed

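Each deposited file holds the intensity of every spot of 1 array, unlogged and, per the file headers, background-subtracted and detrended (spatial and multiplicative) in Agilent Feature Extraction 10.5.1.1, with probe positions on oryCun2. RNA (0.2 μg) was amplified and labelled with Cy3, per the labels' protocols. No step between arrays is recorded.

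Processed intensities were put on the log2 scale and the 75th percentile of the array, over 43603 probes, was subtracted. Outlier spots were left out (41 probes lost) and repeated spots averaged. Names came from the array's columns and the RefSeq listing of mOryCun1.1 (names only): 22379 probes had a gene symbol, 1525 a locus number, 19699 no single symbol. A gene's brightest probe was used, and 20257 of 23413 features passed the filter (3 or more arrays well above background) and were tested with limma 3.58.1 in R 4.3.3 (package data.table, version 1.17.8), in a model of day plus treatment, and Benjamini-Hochberg adjustment at 0.05. The residual has 2 degrees of freedom (2.48 more from the prior) and holds array noise and any change of the HPD difference between days, so its p-values rest on the spread among 6 single arrays. Single-day counts use features well above background on both arrays and 2-fold. The fit was tested on simulated data of 36881 probes, with 50 changed at each size. Of those changed by 1 log2 unit it called 0 for HPD minus control and 0 for day 7 minus day 3. At 2 log2 units it called 24 and 17, and at 4 log2 units 39 and 31. A gene that did not pass the test may thus still differ. Figures used Python 3.11.15 and matplotlib 3.10.9.

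The members and lists were chosen with earlier results of these data known. Named were the 4 genes with every array and probe, up to 4 genes of a list by size of difference, and the 6 named genes most like their mean. The lists were other antigen receptor chains, coreceptors, adapters and kinases, phosphatases, transcription factors, cytokines, homing, cytotoxic, thymocyte, B cell, myeloid, antigen presentation, red cell and tissue check. Antigen presentation had 7 of 7 measured genes lower on day 7 than on day 3 (median -0.61). Thymocyte genes had 2 of 4 lower (median -0.14), where 49.0% of all features were higher. Results for some genes are not reported here. Alternatives tried were quantile and median scaling, normexp (offset 50), mean signal minus local background or minus negative controls (floor 1), all probes averaged, 2 other filters, no day block, and leaving out arrays or days.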

Additional observations from a re-analysis of the deposited data

Results flagged for a closer look

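The difference between filled and empty defects had opposite signs on different days for CD3E, CD3G and LCK, on arrays all well above background. With 1 array per treatment and day these changes of sign were not tested. HPD minus control was 1.85 log2 units higher on day 5 than on day 3 for CD3E (1.27 against -0.58), 1.91 for CD3G (1.38 against -0.53) and 1.55 for LCK (0.95 against -0.59). For CD3E it was also 1.02 higher on day 7 than on day 3 (0.44 against -0.58). For CD3G day 7 minus day 5 of the difference was -1.38 (-0.01 against 1.38), where the day 7 value itself is close to 0, and for LCK it was -1.24 (-0.28 against 0.95). Among 20257 features the change from day 3 to day 5 put CD3G at percentile 97.4, CD3E at 97.1 and LCK at 95.7.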

How the results depend on the processing

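The day block pairs the treatments within a day, and the fit without it changed no call. A pairing by replicate number could not be added, since the labels number no replicates. The signs of the 4 genes on day 3 held under every setting tried. For the HPD effect 0 features were called in every setting. Normexp left 538, 359 and 116 features 2-fold apart on days 3, 5 and 7, against 1277, 1259 and 460. For day 5 minus day 3, against 1 feature called, local background gave 4, normexp 304, and no filter, quantile normalization and leaving out day 7 gave 0. For day 7 minus day 3, against 1, normexp gave 1030, the filter on all 6 arrays 5, and no filter, quantile normalization and leaving out day 5 gave 0. Leaving out single arrays gave 0 to 138 and 0 to 246, each highest without the HPD array of day 3 and 0 without any of the other 5. Normexp called 2 features for day 7 minus day 5, against 0. The median shift split the day 3 features 2-fold apart into 449 higher and 789 lower (705 and 572 by the 75th percentile), and quantile normalization into 470 and 709. On day 5 these splits were 678 and 440, and 704 and 383, against 935 and 324. Normexp moved the median of all features to 0.13 for day 5 minus day 3 and 0.17 for day 7 minus day 3, and the median shift moved that of the HPD effect to -0.04.

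The HPD effect changed sign as follows. Without day 5 it was -0.066 for CD3E, -0.27 for CD3G, -0.44 for LCK and -0.23 for ZAP70. Under normexp it was -0.030 for CD3E, -0.080 for LCK and -0.091 for ZAP70. The median shift gave -0.11 for LCK and -0.018 for ZAP70, quantile normalization -0.10 for LCK, and the BLK probe -0.095. Leaving out single arrays gave -0.066 to 0.86 for CD3E, -0.27 to 0.68 for CD3G, -0.44 to 0.34 for LCK and -0.23 to 0.31 for ZAP70, each lowest without either day 5 array. The BLK probe in place of LCK gave -0.23 for the day 5 difference, 0.41 for day 5 minus day 3 and 0.33 for day 7 minus day 3. For ZAP70 normexp gave -0.12 for the day 5 difference and 0.053 for day 7 minus day 3. ZAP70 on day 7 minus day 5 was 0.43 with local background, 0.043 with negative controls, 0.087 under normexp, 0.36 within control arrays and 0.39 at most without single arrays (lowest -0.65). Day 5 minus day 3 was 0.12 for CD3E and 0.59 for CD3G within HPD arrays, 0.042 for the CD3G probe at base 244, and -1.19 to 0.46 for CD3G without single arrays. CD3E on day 7 minus day 5 was 0.085 within control arrays and -0.996 to 0.34 without single arrays. The CD3G probes, the BLK probe and the receptor chain probes were alternatives chosen after seeing the data. Except where an array or day was left out, the cause was not tested. Every ZAP70 value here, apart from its sign on day 3, rests on arrays not well above background.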
